A study of Mus musculus with 9 samples.

Results

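The transcription factor p53 and the genes it activates were followed in mouse embryonic stem cells with and without β-catenin. The 10 genes were picked by name: Trp53, which encodes p53 itself, and the targets Cdkn1a, Mdm2, Ccng1, Trp53inp1, Sesn1, Sesn2, Bbc3, Zmat3 and Phlda3. Of these, 8 were measured on an array feature assigned to 1 gene symbol, among 19938 genes in all. Cdkn1a shared its feature with another symbol, and Trp53 was not matched to a feature, so neither was analysed here. The 9 arrays, 3 per group, came from lines of a mixed S129S6-C57BL/6 background that all lacked at least 1 β-catenin allele, kept in serum and LIF on gelatin and harvested before confluence. Flox cells, the controls, had 1 allele deleted and the other one floxed. Null cells had lost both alleles, and null Eα cells had lost both and in addition carried, by stable transfection, a construct that fuses E-cadherin to α-catenin. The labels call the replicates biological but name no separate clones or cultures, so p-values measure only the spread between these samples, and genotype and clone cannot be told apart.

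p53 is a DNA-binding protein that stressed cells stabilise, and it switches on genes for cell cycle arrest, DNA repair, altered metabolism and apoptosis. Its level is held down by the ubiquitin ligase Mdm2, which is itself a p53 target, so that the pathway limits its own activity. Embryonic stem cells are known for abundant p53 protein, much of it outside the nucleus, and the protein is controlled largely after transcription, which a transcript array does not see.

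p53 binds DNA as a tetramer at paired copies of a short degenerate motif, the p53 half-site of 10 letters, whose pattern reads the same on both strands and was searched without a spacer or a second copy. In the 250 bases upstream of RefSeq starts (GRCm38.p6), the motif occurred in 7.13% of 32851 windows, and 8.2% of 27025 genes had it in at least 1 window. Among the members it was found for 5 of the 8 genes with a window, namely Ccng1, Mdm2, Sesn1, Trp53 and Cdkn1a. It was not found in the windows of Phlda3, Sesn2 and Bbc3, and Trp53inp1 and Zmat3 were not matched. Of 28 other p53 targets with a window 7 had it (25%). The windows of the 3 measured members with a match are shown because their transcripts behaved differently in these cells, with capitals marking the matched letters. They lie at chr11:40755287-40755536 on the minus strand for Ccng1, chr10:117710759-117711008 on the minus strand for Mdm2 and chr10:41887189-41887438 on the plus strand for Sesn1, which has another start whose window held no match.
Ccng1: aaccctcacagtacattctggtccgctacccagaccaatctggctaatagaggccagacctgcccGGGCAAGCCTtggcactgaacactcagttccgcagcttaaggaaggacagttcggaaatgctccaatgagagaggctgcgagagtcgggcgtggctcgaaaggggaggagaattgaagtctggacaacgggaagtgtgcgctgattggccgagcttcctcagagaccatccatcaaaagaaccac
Mdm2: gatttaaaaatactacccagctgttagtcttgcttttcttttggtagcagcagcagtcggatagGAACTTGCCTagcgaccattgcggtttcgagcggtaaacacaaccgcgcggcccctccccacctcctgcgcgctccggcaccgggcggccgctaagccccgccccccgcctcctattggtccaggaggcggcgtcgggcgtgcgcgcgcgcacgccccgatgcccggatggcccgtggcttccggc
Sesn1: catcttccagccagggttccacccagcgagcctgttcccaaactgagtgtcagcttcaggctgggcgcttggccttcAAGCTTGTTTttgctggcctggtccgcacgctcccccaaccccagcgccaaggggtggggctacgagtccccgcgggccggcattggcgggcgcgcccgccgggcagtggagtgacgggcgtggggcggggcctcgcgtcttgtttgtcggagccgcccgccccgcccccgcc
The matches began 185, 186 and 173 bases upstream of the starts. A match is a description of these letters, and binding was not measured.

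The values were log2 RMA signals, and array medians over all 35556 features lay between 5.95 and 6.06. The interquartile range was 3.75 to 3.84 on flox, 3.41 to 3.46 on null and 3.21 to 3.37 on null Eα arrays, so the groups differed in the width of their distributions. Ctnnb1, the deleted gene, averaged 11.16 in flox, 10.51 in null and 10.23 in null Eα cells on a feature that may also read undeleted exons. Of 10 stem cell markers 9 fell and 1 rose in null cells, beside 28.7% and 26.5% of all genes. Their summed linear signal was 21221 to 21731 on flox, 9623 to 11078 on null and 18600 to 19598 on null Eα arrays. Such sums rest mostly on the brightest genes. In log2 units these markers differed from flox by -5.54 to 0.27 (median -1.27) in null cells. In null Eα cells they differed by -0.80 to 0.69 (median -0.32). Of 13 measured fibroblast markers 11 rose in null and 11 in null Eα cells, beside 26.5% and 32.1% of all genes. Their summed signals were 603 to 697, 7387 to 9000 and 3457 to 4479 on flox, null and null Eα arrays. Between null Eα and null all 10 stem cell markers rose and 7 of the fibroblast markers fell, beside 13.6% and 18.1% of all genes. The lowest value of an array was 2.02 to 2.12, so no marker could be at 0. On flox arrays Lum read only 2.90 to 3.24 and Fap 3.42 to 3.64. In null Eα against flox 1 stem cell marker rose (32.1% of all genes), 5 fell (31.6%) and 4 were not called. The part of these markers in the differences of the p53 genes was not tested. In bulk RNA, fewer cells of a type and less RNA per cell cannot be told apart.

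In null cells the measured p53 targets moved in both directions and by modest amounts. Ccng1, Trp53inp1, Phlda3 and Bbc3 rose, Sesn1 and Sesn2 fell, and Mdm2 and Zmat3 were not called, where called means an adjusted p under 0.05 over all genes (limma with Benjamini-Hochberg adjustment, n = 3 arrays per group). That made 6 of 8 called, beside 55.2% of all genes, with 4 higher (26.5% of all genes) and 2 lower (28.7%). None of the 8 reached 2-fold in this fit. Of all 19938 genes 1003 rose and 2042 fell at least 2-fold, so most genes did not reach it either. Sesn2 passed 2-fold without null replicate 1 (-1.19), and Ccng1 (1.02) and Trp53inp1 (1.04) with each chromosome centred. The median difference was 0.25 log2 units over the members and 0.06 over all genes. Groups did not overlap for 7 of the 8, beside 67.4% of all genes. With each chromosome centred on its brighter genes, those with a mean at or above 6.45, the calls over all genes turned from 5285 higher and 5719 lower to 10973 and 3999, and in null Eα cells from 6399 and 6295 to 12504 and 3273, so values under that setting sit on another scale. In null Eα cells each array centred on its median gave 4674 and 6987.

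**Figure D1:**
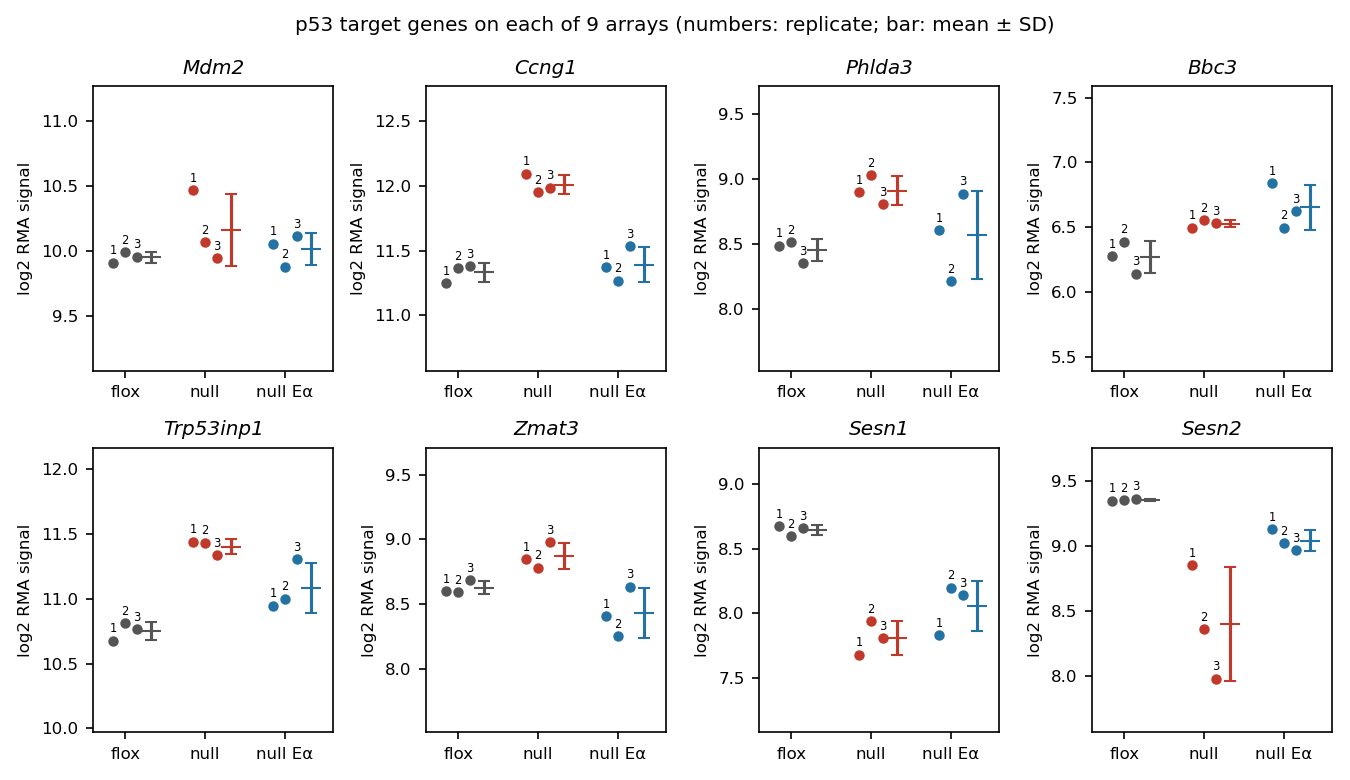
Log2 RMA signal of the 8 measured p53 targets (vertical axes, each spanning the same number of log2 units) on every array, by group (horizontal axis), with replicate numbers at the points and the mean ± SD (n = 3) beside them. Ccng1 and Trp53inp1 were highest on the 3 null arrays, and Sesn1 and Sesn2 were highest on the 3 flox arrays.

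Mdm2, the ubiquitin ligase that marks p53 for degradation, was the only gene of the 8 not called in any comparison. Its flox arrays read 9.91, 9.99 and 9.95, its null arrays 10.47, 10.07 and 9.94, and its null Eα arrays 10.05, 9.88 and 10.11. The groups overlapped, and null replicate 1 alone stood above the rest. Null and flox differed by 0.21 ± 0.13 log2 units (± limma's standard error, 95% interval -0.07 to 0.49, adjusted p = 0.183). Without null replicate 1 the difference was 0.06. Null Eα and flox differed by 0.06 (-0.22 to 0.35) and null Eα and null by -0.15 (-0.43 to 0.14), and neither was called. After quantile normalization, and with each chromosome centred, Mdm2 was called higher against flox in both lines (0.37 and 0.47 in null, 0.34 and 0.39 in null Eα cells).

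Ccng1 encodes cyclin G1, a direct p53 target that brings a phosphatase to Mdm2. It read 11.25, 11.37 and 11.38 on the flox arrays, 12.09, 11.95 and 11.99 on the null arrays, and 11.37, 11.27 and 11.53 on the null Eα arrays. Every null array lay above every other array, while flox and null Eα overlapped. In null cells Ccng1 rose by 0.68 ± 0.09 (1.60-fold, limma adjusted p = 7.09e-05), and the exact two-sided permutation p was 0.1, the smallest that 3 arrays against 3 allow. In null Eα cells it fell from the null level by 0.62 ± 0.09 (adjusted p = 5.08e-04) and differed from flox by 0.06 ± 0.09 (-0.13 to 0.25, adjusted p = 0.568). Ccng1 lies on chromosome 11, whose 876 brighter genes had a median difference from flox of -0.19 (null) and -0.62 (null Eα). With each chromosome centred, Ccng1 lay 1.02 above flox in null cells, was called 0.82 above flox with the fusion, and lost its call between the lines (-0.20).

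Phlda3, a small protein that opposes the kinase Akt at the membrane, read 8.49, 8.52 and 8.35 in flox and 8.90, 9.03 and 8.81 in null cells, with no overlap. Its rise in null cells was 0.46 ± 0.15 (limma adjusted p = 0.0223). That call was lost without flox replicate 3, null replicate 1 or null replicate 2 (0.40 to 0.47). The null Eα arrays were spread from 8.21 on replicate 2 through 8.60 to 8.89 on replicate 3, covering the flox values and reaching the null ones. Their difference was 0.12 (-0.21 to 0.44) from flox and -0.34 (-0.67 to -0.02, adjusted p = 0.101) from null. Without null Eα replicate 3 the former was -0.04 and the latter was called (-0.50). Against flox Phlda3 was called higher without null Eα replicate 2 (0.29), after quantile normalization (0.45) and with each chromosome centred (0.35).

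Bbc3, which encodes the apoptosis inducer Puma, was the dimmest member and lay near the array medians. Its arrays read 6.27, 6.39 and 6.14 in flox, 6.50, 6.56 and 6.53 in null, and 6.84, 6.50 and 6.62 in null Eα cells. Every array without β-catenin lay above every flox array. The null rise was 0.26 ± 0.10 (limma adjusted p = 0.0464), a call lost in 9 of 17 alternatives, among them the fits without flox replicate 1 or 3 or any null array (0.20 to 0.28). With the fusion the rise was 0.39 ± 0.10 (adjusted p = 0.00679), called in all 17. The lines differed by 0.13 (-0.10 to 0.35). Bbc3 lies on chromosome 7, whose brighter genes had medians of -0.28 and -0.32 against flox, and with each chromosome centred the rises were 0.69 and 0.83.

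Trp53inp1 encodes a stress-induced nuclear protein that promotes p53 activity and is itself a target. It read 10.68, 10.81 and 10.77 in flox, 11.44, 11.43 and 11.34 in null, and 10.95, 11.00 and 11.31 in null Eα cells. The 3 groups were fully separate, with null Eα in between. It rose over flox by 0.65 ± 0.10 without the fusion (limma adjusted p = 2.44e-04) and by 0.33 ± 0.10 with it (adjusted p = 0.0137), and null Eα fell from null by 0.32 ± 0.10 (adjusted p = 0.0324). The rise in null Eα cells was not called without flox replicate 1 (0.30) or with each array centred on its median (0.25). The fall from null was not called without any 1 null array, null Eα replicate 1 or null Eα replicate 2 (-0.35 to -0.25), after quantile normalization (-0.27) or when only those groups were fitted. With each chromosome centred the rises over flox were 1.04 and 0.72.

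Zmat3, a zinc finger RNA-binding protein induced by p53, read 8.60, 8.59 and 8.68 in flox, 8.85, 8.78 and 8.98 in null and 8.40, 8.25 and 8.64 in null Eα cells. The null arrays were the highest, and flox overlapped with null Eα. Null and flox differed by 0.24 ± 0.10 (0.02 to 0.47, limma adjusted p = 0.0634), which was called in 6 of 17 alternatives, including those without null Eα replicate 2 or 3 (0.24). Null Eα fell from null by 0.44 ± 0.10 (adjusted p = 0.00835) and differed from flox by -0.19 (-0.42 to 0.03). The latter was called without null Eα replicate 3 (-0.30) and with each array centred on its median (-0.28), and turned to 0.14 after quantile normalization. Zmat3 lies on chromosome 3, whose brighter genes had a median of -0.24 between null Eα and null, and the call was lost with each chromosome centred (-0.15).

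The sestrins Sesn1 and Sesn2, stress-inducible inhibitors of the growth kinase complex mTORC1, went the other way. Sesn1 read 8.67, 8.60 and 8.66 in flox, 7.68, 7.94 and 7.81 in null, and 7.83, 8.20 and 8.14 in null Eα cells. Flox arrays were the highest throughout, and null overlapped with null Eα. Sesn1 fell by 0.83 ± 0.11 in null cells, to 56.2% of the flox signal (limma adjusted p = 6.81e-05). With the fusion the fall was 0.58 ± 0.11, to 66.7% (adjusted p = 8.55e-04). The lines differed by 0.25 ± 0.11 (0.01 to 0.48, adjusted p = 0.101), called after quantile normalization (0.35) and when null Eα replicate 1 was left out (0.36). In null Eα cells the fall from flox was not called after quantile normalization or with each chromosome centred (both -0.26).

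Sesn2, which also senses leucine and is induced by the integrated stress response, read 9.35, 9.35 and 9.37 in flox, 8.85, 8.36 and 7.98 in null, and 9.13, 9.02 and 8.97 in null Eα cells. The groups were fully separate, and the null arrays were far more spread (SD 0.44) than the flox arrays (SD 0.01). Sesn2 fell by 0.96 ± 0.17 in null cells, to 51.4% of flox (limma adjusted p = 8.45e-04), or by 0.57 with each chromosome centred. Its null Eα level was 0.64 ± 0.17 above null (adjusted p = 0.0176), a call lost without null replicate 2, without null Eα replicate 1 and when only those groups were fitted. Null Eα and flox differed by -0.32 ± 0.17 (-0.70 to 0.07, adjusted p = 0.133). It turned to 0.07 with each chromosome centred, and was called when the shared spread left out null replicate 1 or 3 (-0.32) or all null arrays (-0.32).

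**Figure D2:**
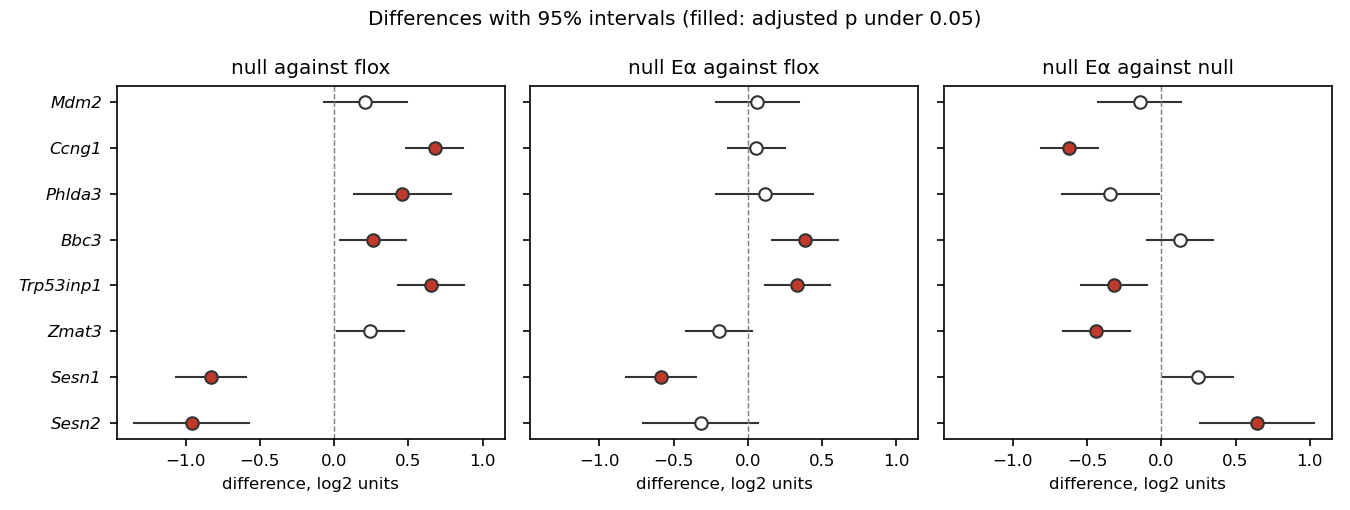
Difference in log2 signal for each measured p53 target (vertical axis) in the 3 comparisons, as limma estimates with 95% intervals; filled circles mark an adjusted p under 0.05. Against flox, filled circles number 6 for null and 3 for null Eα, and between null Eα and null they number 4.

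In null Eα against flox 3 of 8 members were called (2 to 4 with 1 array left out), beside 63.7% of all genes, 2 higher (32.1% of all genes) and 1 lower (31.6%), with a median of 0.06 over the members and 0.07 over all genes. Groups did not overlap for 4 of the 8, beside 69.5%. The split turned to 4 higher and 0 lower after quantile normalization, to 5 and 0 with each chromosome centred, and to 1 and 2 with each array centred on its median. Over all 19938 genes those settings gave 4943 higher and 5262 lower, 12504 and 3273, and 4674 and 6987. Between null Eα and null 4 of 8 were called, beside 31.7% of all genes: Ccng1, Trp53inp1 and Zmat3 were lower (as were 18.1% of all genes) and Sesn2 was higher (13.6%). Groups did not overlap for 4 of the 8, beside 43.1%, and the median was -0.23 over the members and 0.05 over all genes. The split, lower and higher, was 2 and 2 after quantile normalization and 1 and 1 with each chromosome centred. Over all genes those settings gave 3151 lower and 2870 higher, and 2523 and 6350. Without null replicate 2 only 2 members were called, both lower. The 2 comparisons with flox share its arrays, and those with null share the null arrays.

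The members' relatives show how far a family moved as one. Sesn3, the third sestrin and a target of FoxO factors, fell with Sesn1 and Sesn2 in null cells (-0.62 ± 0.12, limma adjusted p = 0.00164) and lay 0.41 ± 0.12 above null with the fusion (adjusted p = 0.0312). The latter call was lost in 5 of 17 alternatives, among them those without null replicate 1 or 2 or null Eα replicate 3 (0.26 to 0.41). With each chromosome centred the null fall was 0.32. Ccng2, the cyclin G1 relative that blocks cell cycle progression, rose with Ccng1 in null cells, by 1.23 ± 0.10, and was 0.81 ± 0.10 lower with the fusion than without it (limma adjusted p = 3.06e-04). It stayed above flox in null Eα cells (0.42 ± 0.10, limma adjusted p = 0.00513), or by 0.84 with each chromosome centred.

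Other families were divided. Trp53inp2, an autophagy factor, fell below flox by 1.04 ± 0.09 (null) and 1.13 ± 0.09 (null Eα), while Trp53inp1 rose. Phlda1 rose by 1.45 ± 0.18 and 0.91 ± 0.18 against flox, and Phlda2, an imprinted growth restrainer, fell by 1.24 ± 0.10 and 1.13 ± 0.10. The zinc finger genes Zmat2 (0.62 ± 0.07 and 0.38 ± 0.07) and Zmat5 (-1.75 ± 0.08 and -1.82 ± 0.08) were called in opposite directions. Zmat4 rose in null cells (0.48 ± 0.16) with groups that overlapped, a call lost without flox replicate 1 or 2 or null replicate 1 or 2 (0.34 to 0.50) and after quantile normalization (0.37). Zmat1, at 2.92 to 3.21 over all arrays, rose in null Eα cells (0.20 ± 0.08), a call lost in 9 of 17 alternatives, among them those without flox replicate 1 or 3, null replicate 2 or 3, or null Eα replicate 1 or 2 (0.16 to 0.20). Of the p21 relatives, Cdkn1c (p57), an imprinted CDK inhibitor, rose by 1.52 ± 0.11 and 1.28 ± 0.11, and Cdkn1b (p27) differed by -0.01 ± 0.13 and -0.31 ± 0.13 and was not called. Its features disagreed, since their mean gave 0.58 in null, a called rise, and 0.30 in null Eα cells. The null Eα difference was called in several alternatives, among them those without null replicate 1 (-0.31) or null Eα replicate 3 (-0.41), with each array centred on its median (-0.39), and in the other direction with each chromosome centred (0.46).

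Among p53 targets outside the member list, more genes rose than fell in null cells. Of 32 measured targets (34 listed) 16 rose and 9 fell, beside 26.5% and 28.7% of all genes, with a median of 0.42 (0.06 over all genes). The share that fell, 9 of 32, was near that of all genes. The split was 18 and 9 after quantile normalization and 15 and 10 with each array centred on its median. With each chromosome centred it was 20 and 8, where 10973 of the 19938 genes were called higher and 3999 lower. Plk2, a polo-like kinase, rose by 3.32 ± 0.11 (limma adjusted p = 6.60e-09) from a flox mean of 7.12 ± 0.15 (SD, n = 3) to null arrays of 10.61, 10.31 and 10.39. Btg2, an inhibitor of proliferation, rose by 1.93 ± 0.29 from 6.82, 7.04 and 7.05 to 8.79, 9.12 and 8.79. Plk3, another polo-like kinase, fell by 2.01 ± 0.15, and Pltp, a phospholipid transfer protein, by 2.39 ± 0.09.

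Further targets were chosen for mention after their values were seen. Gadd45a, a DNA damage and arrest gene, rose by 1.84 ± 0.11 in null cells. The apoptosis genes Perp, Pmaip1 (Noxa) and Apaf1 rose by 1.33 ± 0.23, 1.11 ± 0.17 and 0.86 ± 0.21, and Eda2r, a receptor of the TNF receptor family, by 0.91 ± 0.13. The repair genes Ercc5, a nuclease, and Polk, a bypass polymerase, rose by 1.03 ± 0.15 and 0.88 ± 0.10. The apoptosis genes Fas and Aen also rose, by 0.72 ± 0.18 and 0.59 ± 0.11. Some other genes of both kinds on the list were not called in null cells. For repair these were Xpc (0.06 ± 0.08), Ddb2 (-0.02 ± 0.12) and Rrm2b (0.09 ± 0.10). For apoptosis they were Tnfrsf10b (-0.29 ± 0.13) and Pidd1 (-0.25 ± 0.11). Ei24, also linked to apoptosis, and the ribosomal protein gene Rps27l fell by 1.58 ± 0.08 and 1.66 ± 0.08. Rps27l resembles other ribosomal copies and its value is uncertain.

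**Figure D3:**
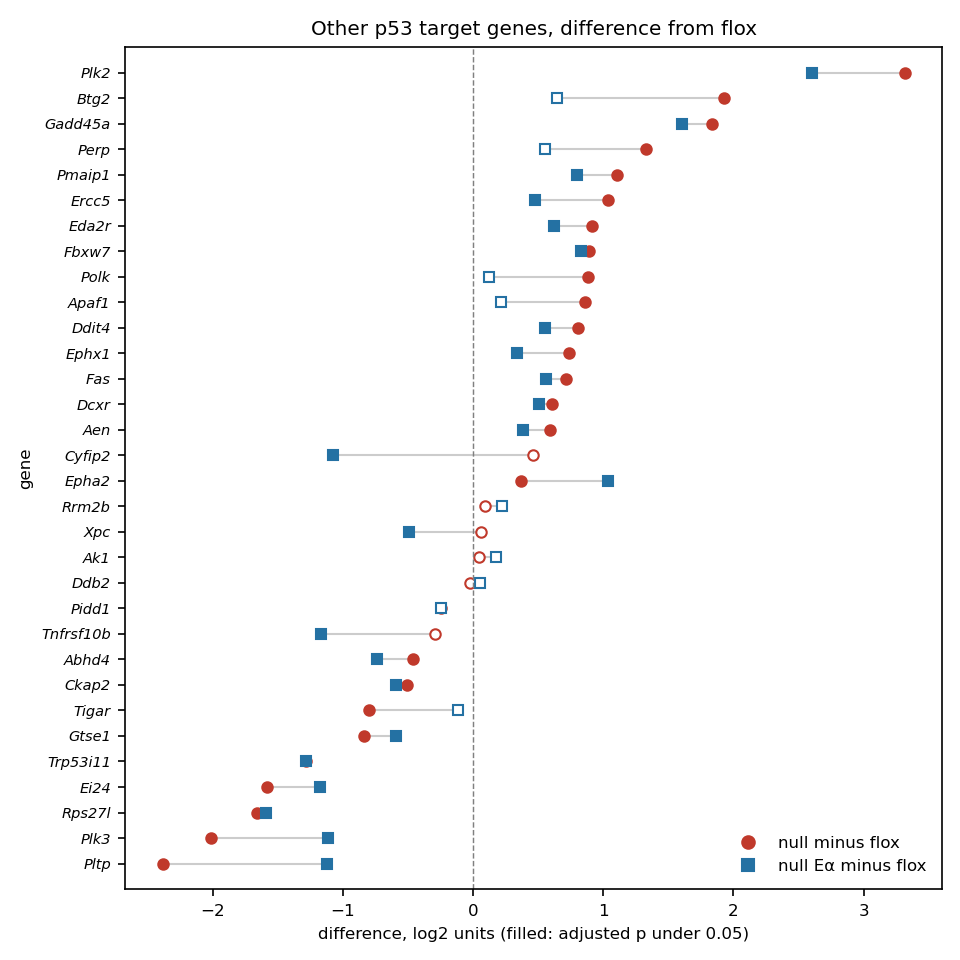
Difference from flox in log2 units (horizontal axis) for 32 further p53 targets (vertical axis), with red circles for null and blue squares for null Eα cells; filled symbols mark an adjusted p under 0.05. Plk2 stood highest in both lines, at 3.32 and 2.60, and Cyfip2 lay at 0.46 in null and -1.07 in null Eα cells.

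In null Eα cells 12 of these targets rose and 11 fell against flox (median 0.19), near the 32.1% and 31.6% of all genes. With each chromosome centred the split was 21 and 8, beside 12504 and 3273 of the 19938 genes. Against null cells 6 were higher and 11 lower (median -0.18), beside 13.6% and 18.1% of all genes. Here chromosome centring gave 8 and 8, beside 6350 and 2523 over all genes. Plk2 stayed 2.60 ± 0.11 above flox and lay 0.72 ± 0.11 below null. Btg2 read 7.38, 7.03 and 8.44, fell from null by 1.29 ± 0.29 (limma adjusted p = 0.00699), and differed from flox by 0.64 ± 0.29 (adjusted p = 0.0718), a value of 0.23 without null Eα replicate 3. It was called without null Eα replicate 2 (0.94), after quantile normalization (0.82) and with each chromosome centred (0.87). Pltp was 1.26 ± 0.09 and Plk3 0.90 ± 0.15 higher than in null cells. Cyfip2, part of an actin-regulating complex, lay 1.54 ± 0.23 below null, and its fall from flox was not called with each chromosome centred (-0.31). In null against flox it was not called (0.46 ± 0.23, limma adjusted p = 0.116), except without null Eα replicate 3 (0.46), after quantile normalization (0.66), with each chromosome centred (0.81) and when only those groups were fitted. Tnfrsf10b, a death receptor, fell from null by 0.88 ± 0.13, and Polk by 0.76 ± 0.10. Epha2, a receptor kinase, rose by 0.67 ± 0.14 over null and stood 1.04 ± 0.14 above flox.

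Of the genes that control p53 or belong to its family, 4 of 27 rose and 11 fell in null cells, with a median of -0.07. That made 55.6% called, near the 55.2% of all genes. The split was 8 and 7 after quantile normalization and 12 and 6 with each chromosome centred, so the balance of the list turned with the scaling. All genes gave 4825 higher and 5304 lower, and 10973 and 3999, under those settings. Ppm1d (Wip1), the phosphatase that removes activating marks from p53 and is also a p53 target, fell by 1.14 ± 0.11 (limma adjusted p = 7.99e-06). Ppp1r13b (ASPP1), which steers p53 to apoptosis genes, fell by 0.95 ± 0.11, and Hipk2, a kinase that activates p53, by 0.94 ± 0.08. Sirt1, a p53 deacetylase, fell by 0.86 ± 0.12. Mdm4, the partner of Mdm2, fell by 0.31 ± 0.12 (limma adjusted p = 0.0459). That call was lost in 10 of 17 alternatives, among them those without any 1 flox array, null replicate 1 or 2, or null Eα replicate 1 or 2 (-0.33 to -0.22).

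Their level in null Eα cells split further. Sirt1 averaged 9.80 ± 0.05 in flox, 8.94 ± 0.24 in null and 9.89 ± 0.13 in null Eα cells (SD, n = 3), with null below both and the others overlapping. It rose over null by 0.95 ± 0.12 (limma adjusted p = 2.55e-04) and Mdm4 by 0.56 ± 0.12. Hipk2 fell further, by 0.65 ± 0.08, and Ppp1r13b by 0.35 ± 0.11, a call lost in 5 of 16 alternatives, among them those without null replicate 2 or 3 or null Eα replicate 2 (-0.32 to -0.28). Ppm1d stayed 1.45 ± 0.11 below flox and Hipk2 1.59 ± 0.08, or 0.69 and 0.82 with each chromosome centred. Against flox Sirt1 (0.09 ± 0.12) was not called, but was after quantile normalization (0.37) and with each chromosome centred (0.42). Hipk2's call against null was lost with each chromosome centred (-0.18).

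Also named after their values were seen, Ep300, a p53 acetyltransferase, fell below flox by 0.92 ± 0.10 in null cells and by 0.77 ± 0.10 with the fusion, the latter by 0.47 after quantile normalization. Usp7, which removes ubiquitin from Mdm2 and p53, fell by 0.35 ± 0.07 in null cells, a call lost with each chromosome centred (-0.11), and lay 0.52 ± 0.07 above null with the fusion. Rpl5, a ribosomal protein that binds Mdm2, rose by 0.44 ± 0.06 and 0.50 ± 0.06, but has near-identical copies and is uncertain. Over the list 4 rose and 6 fell in null Eα against flox, beside 32.1% and 31.6% of all genes. The split became 12 and 5 after quantile normalization, 2 and 8 with each array centred on its median and 17 and 5 with each chromosome centred. All genes then gave 4943 and 5262, 4674 and 6987, and 12504 and 3273. Against null 5 rose and 5 fell, beside 13.6% and 18.1%. That became 4 and 2 without null Eα replicate 2, 8 and 1 with each chromosome centred and 4 and 7 with each array centred on its median. All genes then gave 1968 and 2758, 6350 and 2523, and 2084 and 4072.

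**Figure D4:**
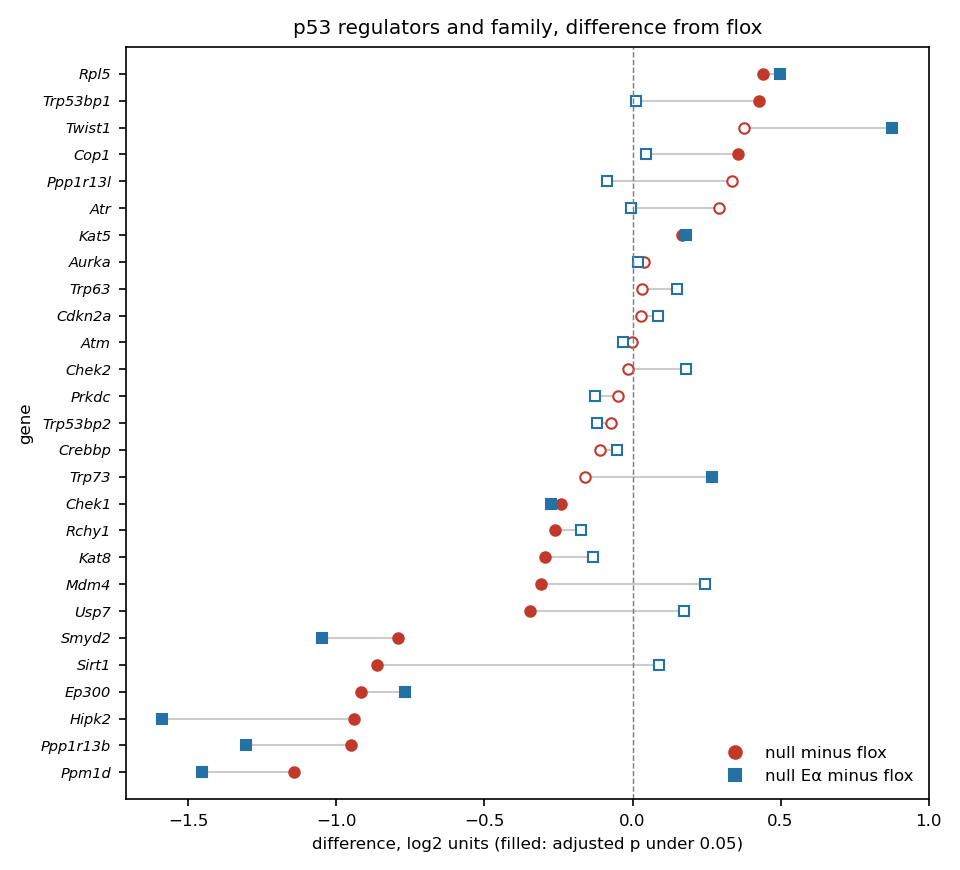
Difference from flox in log2 units (horizontal axis) for 27 regulators and relatives of p53 (vertical axis), with red circles for null and blue squares for null Eα cells; filled symbols mark an adjusted p under 0.05. Sirt1 lay at -0.86 in null and 0.09 in null Eα cells, and Ppm1d and Hipk2 were low in both.

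p53 lowers many cell cycle genes indirectly, through p21 and the DREAM repressor complex. Of 18 measured genes of that kind 13 fell and 2 rose in null cells (median -0.45), beside 28.7% and 26.5% of all genes. In null Eα cells 12 fell and 1 rose (median -0.70), beside 31.6% and 32.1%. The genes that rose in null cells were Top2a (0.44 ± 0.08) and Bub1b (0.33 ± 0.10), and in null Eα cells Bub1b (0.25 ± 0.10). Without null replicate 2 only 1 gene of the list was called higher in null cells. Neither p21 (Cdkn1a) nor p53 (Trp53) was analysed, and whether p53, p21 or DREAM had a part in these changes was not tested. Mybl2 (B-Myb), a cell cycle transcription factor, fell by 3.02 ± 0.10 from flox arrays of 11.62, 11.67 and 11.65 to null arrays of 8.68, 8.64 and 8.54. It stood at 10.98, 11.12 and 10.71 on the null Eα arrays, 2.32 ± 0.10 above null (limma adjusted p = 2.88e-07) and still 0.71 ± 0.10 below flox, the last of which was not called with each chromosome centred (-0.30). E2f1, which drives S phase, fell by 2.03 ± 0.09 and lay 0.57 ± 0.09 above null with the fusion. Ccnb2, a mitotic cyclin, fell below flox by 1.27 ± 0.11 (null) and 1.28 ± 0.11 (null Eα). Aurkb, a mitotic kinase, fell by 1.19 ± 0.09 in null cells and by another 0.54 ± 0.09 in null Eα cells, a further fall that was lost with each chromosome centred (-0.12). Between null Eα and null 2 rose and 5 fell, beside 13.6% and 18.1% of all genes, or 2 and 9 without null Eα replicate 3. The splits against flox were 4 higher and 10 lower in null and 3 and 11 in null Eα cells after quantile normalization, and 5 and 8, and 4 and 7, with each chromosome centred. Against null they were 3 and 4, and 4 and 2. Over all genes, chromosome centring called more genes higher than lower in each comparison.

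Null Eα replicate 3 stood apart from its group. Over all genes its correlation with the null arrays was 0.978 to 0.981, against 0.959 to 0.968 for replicates 1 and 2. With null Eα replicates 1 and 2 it correlated at 0.990 and 0.989, higher than with any null array. Of the 3 null Eα arrays it lay nearest to the null mean for 51.8% of all genes, for 6 of the 8 members, 20 of the 32 other targets, 11 of the 27 regulators and 11 of the 18 cell cycle genes. It was the highest of the 3 for 33.4% of all genes, for 5 members, 18 other targets, 16 regulators and 13 cell cycle genes. Perp read 8.22, 8.08 and 9.11, Apaf1 8.50, 8.48 and 9.42, and Ercc5 8.88, 8.86 and 9.47 on null Eα replicates 1, 2 and 3. In each, replicate 3 lay nearest to the null means of 9.25, 9.45 and 9.62. The calls of these 3 genes between the lines were lost without null Eα replicate 1 or 2 (-0.65 and -0.58 for Perp, -0.50 and -0.49 for Apaf1, -0.46 and -0.45 for Ercc5) and without null replicate 1 (-0.69, -0.67 and -0.52). Leaving out any other single array but null Eα replicate 3 also ended the call of Apaf1 (-0.67 to -0.60), and null replicate 3 that of Perp (-0.75). Ercc5 rose over flox by 0.48 ± 0.15, or by 0.28 without replicate 3, and was not called without flox replicate 1 (0.43). Without null Eα replicate 3, 4 members were called against flox, 2 in each direction, and 5 against null, 1 higher and 4 lower. Apaf1 lay at -0.10 against flox without it, compared with 0.21 with it.

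**Figure D5:**
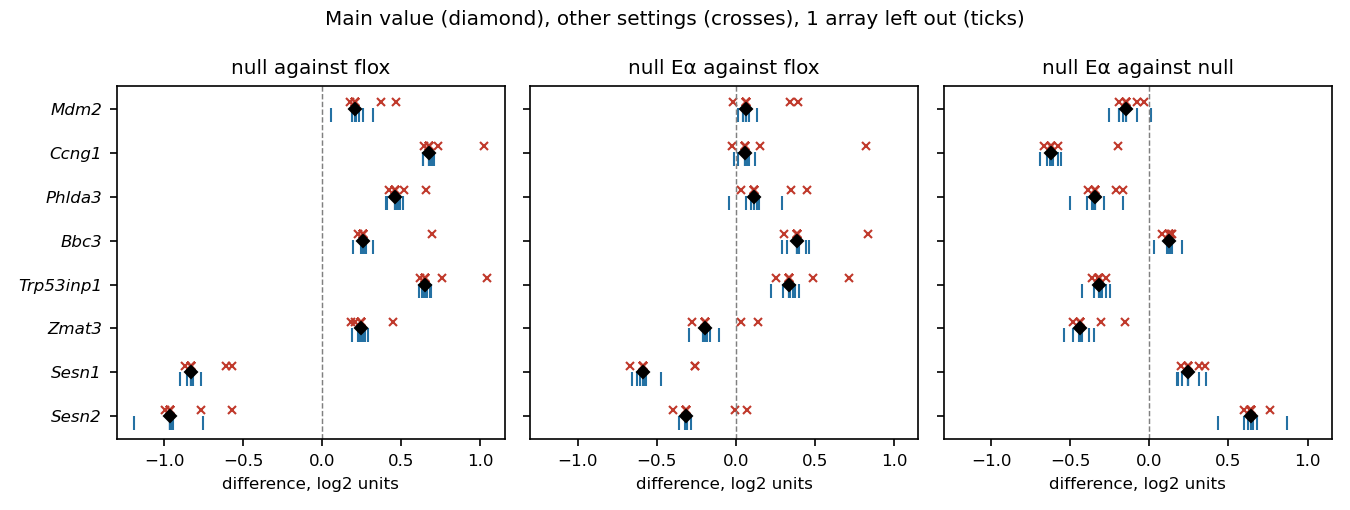
Difference in log2 units (horizontal axes) for each measured p53 target (vertical axis) under the main setting (black diamonds), 8 other settings (red crosses) and with 1 array left out (9 blue ticks). In null against flox all marks of a gene lay on 1 side of 0, and in null Eα against flox those of Mdm2, Ccng1, Phlda3, Zmat3 and Sesn2 fell on both sides.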

How the data were processed

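Expression was measured on Affymetrix whole-transcript arrays, 1 per sample, and the deposited table held log2 RMA signals made by the authors with RMA, per the submitters' processing notes; whether all 9 arrays were normalized together is not given in the sources used here. Values were used as deposited. Of 35556 features 21789 had 1 symbol, 1621 several (left out) and 12146 none, and the feature with the highest mean represented a gene. Groups came from the sample titles. One limma 3.58.1 model (R 4.3.3) covered all 19938 genes (group means over 9 arrays, 6 residual and 4.04 prior degrees of freedom), with Benjamini-Hochberg adjustment over all genes per comparison. The code was tested on simulated data. Precision was limited by 3 arrays per group, and signal over background was not measured. Chromosomes came from GRCm38.p6, and promoter sequences from RefSeq. Python 3.11.15 and matplotlib 3.10.9 drew the figures.

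The members and lists were chosen with earlier results of these data known. The lists held symbols of 34 other targets, 30 regulators, 20 cell cycle genes and 11 relatives, with 32, 27, 18 and 11 measured. Among the regulators, Rfwd2 and Cop1 name the same gene, which was measured as Cop1. Named by rule were all members and measured relatives and, of each other list, the 3 called genes with the largest difference in null against flox and in null Eα against null; genes most like Trp53 and Cdkn1a could not be sought. Alternatives were quantile normalization, centring by array or chromosome, leaving out dim genes (mean under 6.45), fitting only the groups compared, a trend and robust prior, averaging features, a replicate block and leaving out each array.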

Additional observations from a re-analysis of the deposited data

How the results depend on the processing

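In null against flox 4 to 7 members were called over the 17 alternatives (4 to 7 with 1 array left out), and none of the 8 changed direction. Leaving out dim genes or a null Eα array, the trend and robust prior, and averaging features left these estimates as they were. The same held for the replicate block and for fitting only the groups compared, so those settings could not turn a direction. In null Eα against flox 2 to 5 members were called (2 to 4 with 1 array left out), and in null Eα against null 2 to 5 (2 to 5 with 1 array left out, 2 without null replicate 2). With each chromosome centred, which moved the median over all genes to 0.32 and 0.45 against flox and 0.17 between the lines, 5 and 2 members were called in these 2 comparisons, and 2 in the second when only its groups were fitted. Of 27 regulators 17 were called in null Eα against flox after quantile normalization and 22 with each chromosome centred. Of all 19938 genes 4943 were then called higher and 5262 lower, and 12504 and 3273. In null Eα against null 6 regulators were called when only those groups were fitted, beside 2067 genes higher and 2902 lower over all genes. With 1 array left out the regulators called between these lines numbered 6 to 11 (6 without null Eα replicate 2). The cell cycle genes numbered 6 to 11 (11 without null Eα replicate 3). The lists and further genes were put through the alternatives after seeing the data.

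Some differences changed sign. In null Eα against flox, Zmat3 turned to 0.14 after quantile normalization and 0.032 with each chromosome centred, Sesn2 to 0.069 with each chromosome centred, and Mdm2 and Ccng1 to -0.018 and -0.024 with each array centred. With 1 array left out Ccng1 ranged from -0.01375 to 0.12, Phlda3 from -0.045 to 0.29 and Apaf1 from -0.10 to 0.37 there, each below 0 without null Eα replicate 3. Between the lines Mdm2 ranged from -0.25 to 0.0091 (above 0 without null replicate 1), Ccnb2 from -0.11 to 0.061 and Phlda2 from -0.0043 to 0.18 (below 0 without null replicate 3), and Cdkn1b in null cells from -0.078 to 0.12. After quantile normalization Zmat1 (-0.0405) and Cdkn1b (0.20) turned in null, and Sesn3 (0.12), Zmat4 (-0.10) and Cdkn1b (0.0043) in null Eα cells, against flox, and Ccnb2 (0.092) between the lines. With each chromosome centred Cdkn1b was 0.29 and 0.46 and Sesn3 0.075 against flox, and between the lines Ppm1d was 0.11, Trp53inp2 0.11, Zmat5 0.36, Cdkn1b 0.17 and Gadd45a 0.24. Cdkn1b averaged over its features was 0.58 and 0.30. Of these turned values the 0.46 and 0.58 of Cdkn1b and the 0.36 of Zmat5 were called. The cause was not tested.

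The labels share replicate numbers across groups. Same-numbered arrays deviated together only weakly (correlations of -0.03 to 0.26 over 9 pairs), and not every array correlated best with its own number. The highest values were those of null Eα replicate 3 with flox replicate 3 (0.21) and null replicate 3 (0.26). With arrays of other numbers that array correlated at -0.19 to -0.06. With the replicate block 6, 3 and 4 members were called in the 3 comparisons, as without it, but in null cells Bbc3 lost its call and Zmat3 gained one, and Cdkn1b gained one in null Eα cells against flox. The number of arrays limits precision, and signal over background was not measured.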
